A study of Homo sapiens with 41 samples.

Results

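The long arm and part of the short arm of human chromosome 19 carry many genes for C2H2 zinc finger proteins, most of them in tandem rows of related copies. The genes described here are the protein-coding genes of that chromosome whose symbol is ZNF followed by a number, with or without a closing letter. The rule took 246 of the 58721 genes in the count table, and 229 of them had enough counts to be tested. It used symbol, biotype and position only, and no measured value.

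A C2H2 zinc finger is a short loop of protein held by a zinc ion, and a row of such fingers reads a stretch of DNA. Many of the genes also encode a KRAB box, which recruits the corepressor TRIM28 and through it SETDB1, the methyltransferase that marks lysine 9 of histone H3, and HP1 proteins. KRAB zinc finger proteins are best known for silencing transposable elements, each binding its own set. In a translated canonical transcript of each gene, 211 of the 246 matched a KRAB A box and the number of fingers had a median of 12, with 1 at the fewest and 36 at the most.

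The cells were T98G, a human glioblastoma line that stops cycling without serum. All cultures were kept without serum for 72 h and then received 20% serum, and 1 library of rRNA-depleted total RNA was sequenced for each of 41 time points, every 10 min up to 400 min, with 0 min unstimulated. No time point has a replicate, each is a separate culture, and the errors below are standard errors from the scatter of the libraries about a smooth curve of time. The libraries held the mesenchymal and glioblastoma transcripts VIM, CD44, FN1, TNC and EGFR at means of 6156 to 137907 normalized counts. Of the other astroglial, glioblastoma and mesenchymal markers read out, NES (mean 38.3) and OLIG2 (34.0) were low. GFAP, S100B and SOX2 were near 0, with means of 0.237 to 1.66. Of 9 markers of other cell types, CD68 (mean 1745) and KRT8 (285) were clearly detected and the other 7 had means of 0.133 to 18.7. FOS, the immediate early gene, reached 16477 normalized counts at 30 min, against 238 at 0 min.

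A normalized count is the number of reads on the exons of a gene divided by a size factor of its library. The members' summed normalized count was lowest at 10 min (60644) and highest at 400 min (95084), and these made up 0.287% (80 min) to 0.374% (400 min) of the counts of protein-coding genes. Total counts ran from 17942849 (20 min) to 63805967 (70 min). Exons of the members had a median GC content of 42.3%, against 48.6% over tested protein-coding genes and 60.8% over the other tested protein-coding genes of chromosome 19. Libraries differed in how well GC-poor genes were represented. The median log2 level of the 10% most GC-poor genes minus that of the 10% most GC-rich genes, each relative to its own mean, was 0.01 at 0 min, -0.88 at 30 min (the lowest) and 0.64 at 400 min (the highest). The members' median deviation moved with it over the 41 libraries (Pearson's r = 0.84, Spearman's rho = 0.79, a description of libraries that share one time axis and one normalization), and the members' medians of -0.30 at 10 min and 0.23 at 400 min stand beside GC differences of -0.74 and 0.64. The part of GC content in any single gene's change was not tested, so calls are also given with an offset that removes, in each library, the median shift of genes of like GC content.

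**Figure D1:**
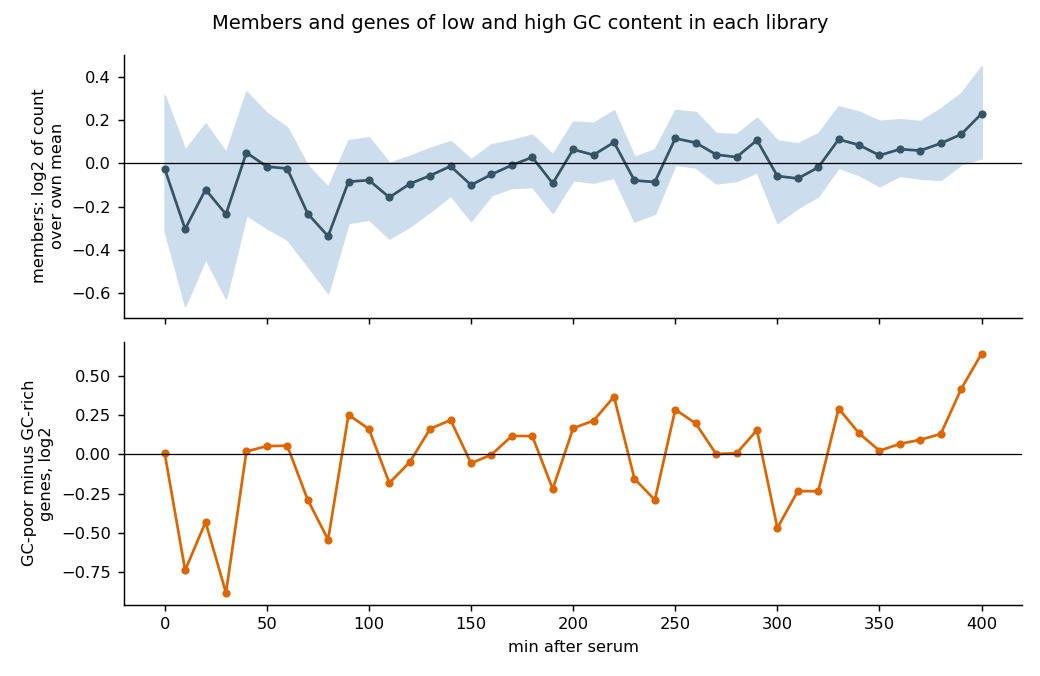
Upper panel, median log2 ratio of the members' normalized counts to their own mean in each of the 41 libraries, with the middle 50% of members shaded. Lower panel, log2 level of the 10% most GC-poor genes minus that of the 10% most GC-rich genes. Time after serum, in min, runs along both panels. Both series are low at 10, 30 and 80 min and both end at their highest point, 0.23 and 0.64, at 400 min.

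The first question was how many of these genes changed after serum and in which direction. At 30 min 6 members were higher and 2 lower than at 0 min (adjusted p below 0.01, edgeR's quasi-likelihood test with Benjamini-Hochberg adjustment over all 21629 genes tested), while 1.71% of all genes were higher and 0.342% lower. At 60 min 11 were higher and 12 lower, with 5.15% and 1.23% of all genes. Lower members therefore made up 5.24% of the 229 at 60 min, and at 120 min 33 members were lower (14.4%, all genes 6.76%) and 26 higher (11.4%, all genes 13.6%). By 240 min 51 were higher and 42 lower, shares of 22.3% and 18.3% that lie near the 21.6% and 18.5% of all genes. At 400 min 62 were higher (27.1%, all genes 24.2%) and 28 lower (12.2%, all genes 22.4%). The median log2 change of the 229 was -0.13 at 60 min and -0.11 at 120 min. It was 0.03 by 240 min and reached 0.18 in the 400 min contrast, while that of all genes lay between -0.01 and 0.01 at these times.

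The GC offset left the counts of higher members close to these and added lower ones. With it, 7 were higher and 4 lower at 30 min (all genes 2.14% and 1.20%). The 60 min contrast had 13 and 20 (6.0% and 3.04%), the 120 min contrast 31 and 59 (14.7% and 11.9%), the 240 min contrast 50 and 61 (22.3% and 24.4%) and the 400 min contrast 56 and 52 (24.2% and 27.2%). Higher members made up 68.9% of the calls at 400 min without the offset and 51.9% with it (all genes 52.0% and 47.1%). The members' median log2 change at 400 min was 0.18 without and 0.03 with it. That of all genes moved down as well, from -0.004 without the offset to -0.07 with it. At 120 min all 33 lower calls were also made with the offset, as were 24 of the 26 higher ones, and at 400 min all 28 lower and 52 of the 62 higher ones. The excess of lower members at 60 and 120 min over all genes was thus present in both fits, and the shortage of lower members at 400 min was larger without the offset (12.2%, all genes 22.4%) than with it (22.7%, all genes 27.2%).

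Every contrast with 0 min leans on the single unstimulated library. Without it, with the curve drawn back to 0 min from 10 min on, 1 member was higher and none lower at 60 min (9 and 8 at an unadjusted p under 0.05; DESeq2 on all 41 libraries called 11 and 13), 4 higher and 2 lower at 120 min, and 11 higher and 2 lower at 400 min. Contrasts between later times do not need that library, and they gave 29 members higher and 20 lower at 120 min than at 60 min (all genes 11.1% and 5.03%), 59 higher and 16 lower at 240 min than at 120 min (18.0% and 18.1%), and 44 higher and 15 lower at 400 min than at 240 min (14.8% and 14.5%). For 240 against 120 min the members' shares were 25.8% higher and 7.0% lower, and 73 higher and 22 lower with the GC offset (all genes 20.6% and 21.7%). That step therefore ran upward among the members in both fits, with a median of 0.08 on the log2 scale, or 0.09 with the offset. The offset gave 32 higher and 42 lower for 120 against 60 min (13.5% and 8.10%) and 42 higher and 25 lower for 400 against 240 min (16.2% and 17.4%). Without the 400 min library the last step had 22 higher and 9 lower. With spike-in size factors the 60 min contrast had 1 higher and 1 lower, the 120 min contrast 6 and 5 and the 400 min contrast 24 and 11, with 22 higher and 6 lower at 240 min than at 120 min. For ZNF548 at 60 min the standard error was 0.22 without the 0 min library and 0.24 with spike-in size factors, against 0.09. Shares of all genes were not read out for these 2 fits. Their counts therefore do not tell a loss among the members from a loss of calls in all genes.

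**Figure D2:**
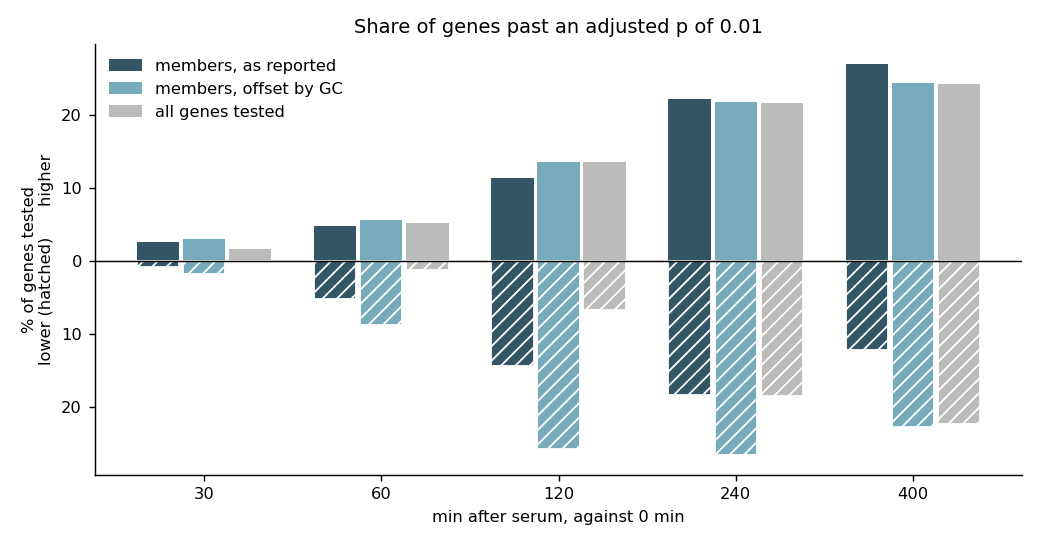
Share of tested genes (%) that were higher (solid, upward) or lower (hatched, downward) at 30, 60, 120, 240 and 400 min than at 0 min, at an adjusted p below 0.01 in edgeR. Each time has the 229 members, the members with the GC offset and all 21629 genes. The hatched bar at 120 min reaches 14.4% for the members, 25.8% with the offset and 6.76% for all genes.

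Over the whole course 188 of the 229 changed (82.1%, all genes 75.5%, protein-coding genes 86.2%), and 145 had values that followed those of the preceding library (63.3%, all genes 61.1%, by a Ljung-Box test with a lag of 1 library and the same threshold). Among these 145, the lowest running mean of 3 libraries fell at or before 100 min in 91, between 110 and 290 min in 41 and from 300 min on in 13. The highest fell in the same spans in 45, 35 and 65. The lowest value thus came by 100 min in 62.8% of the 145 and from 300 min on in 8.97%, against 48.4% and 36.2% of 10185 autocorrelated protein-coding genes. GC-poor genes were low in the same early libraries, at 10, 30 and 80 min.

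Zinc finger genes of the same naming pattern on other chromosomes give the nearest comparison. Of 235 tested, 31 were higher and 34 lower at 120 min than at 0 min and 59 higher and 45 lower at 400 min, with medians of -0.07 and 0.00. At 120 min 14.4% of the members and 14.5% of these genes were lower. For 240 against 120 min they had 54 higher and 40 lower, so that 7.0% of the members and 17.0% of these genes were lower, and the difference between these shares was not tested. The other 818 tested protein-coding genes of chromosome 19, which are GC-rich, had 92 higher and 39 lower at 120 min and 173 higher and 215 lower at 400 min.

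The largest rise called at 60 min was that of ZNF548, a KRAB zinc finger gene near the end of the long arm (ENSG00000188785.11, chr19:57389850-57402992, plus strand, GRCh38). Its normalized count was 641 at 0 min and 627 at 10 min, then 1124 at 30 min and 1549 at 40 min. The highest value, 1680, came at 60 min, and the count had sunk to 1260 at 120 min, with 796 after 240 min and 694 after 400 min. All the libraries from 30 to 100 min thus lay above those at 0 and 10 min. The log2 change at 60 min was 1.46 with a standard error of 0.09 (adjusted p 7.64e-18, edgeR), a 2.76-fold higher level, and it passed the threshold in all 15 alternatives, with 1.88 without the 0 min library. It was still 0.96 (0.09) at 120 min, and the count fell again by 0.59 on the log2 scale at 240 min against 120 min.

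The promoter of ZNF548 is printed because it is one of only 2 among 216 member promoters that hold a CArG box, the sequence bound by the serum response factor SRF. Promoters here are 250 bases before to 50 bases after the start of the gene, taken from RefSeq on GRCh38.p14, where 216 of the 246 members were found by symbol. Both strands were searched. Beside it stand the promoter of ZNF562, the other with a CArG box, that of ZNF121, which has a cyclic AMP response element (CRE, TGACGTCA) like ZNF562, and that of ZNF792, the gene with the largest fall. Capitals mark matches to the CArG box, the CRE and an ETS site (CCGGAAG). The windows are chr19:57389604-57389903 on the plus strand for ZNF548, and on the minus strand chr19:9675051-9675350 for ZNF562, chr19:9584455-9584754 for ZNF121 and chr19:34964180-34964479 for ZNF792.
ZNF548: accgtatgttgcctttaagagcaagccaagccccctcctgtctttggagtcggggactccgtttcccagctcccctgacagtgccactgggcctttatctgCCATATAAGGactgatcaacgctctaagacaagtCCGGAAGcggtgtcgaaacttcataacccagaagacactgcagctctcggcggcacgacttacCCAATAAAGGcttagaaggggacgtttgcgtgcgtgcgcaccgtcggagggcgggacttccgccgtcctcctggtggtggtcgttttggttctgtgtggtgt
ZNF562: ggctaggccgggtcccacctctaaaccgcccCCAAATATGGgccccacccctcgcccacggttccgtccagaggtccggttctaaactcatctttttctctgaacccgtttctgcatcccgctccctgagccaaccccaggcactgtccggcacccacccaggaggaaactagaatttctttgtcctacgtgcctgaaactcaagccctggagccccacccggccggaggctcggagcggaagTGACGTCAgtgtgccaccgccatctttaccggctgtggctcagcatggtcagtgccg
ZNF121: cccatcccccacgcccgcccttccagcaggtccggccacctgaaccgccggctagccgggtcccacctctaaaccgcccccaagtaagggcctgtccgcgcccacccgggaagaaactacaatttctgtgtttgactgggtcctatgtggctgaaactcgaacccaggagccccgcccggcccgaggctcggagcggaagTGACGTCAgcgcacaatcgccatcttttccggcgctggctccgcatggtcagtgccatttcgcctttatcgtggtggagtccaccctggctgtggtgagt
ZNF792: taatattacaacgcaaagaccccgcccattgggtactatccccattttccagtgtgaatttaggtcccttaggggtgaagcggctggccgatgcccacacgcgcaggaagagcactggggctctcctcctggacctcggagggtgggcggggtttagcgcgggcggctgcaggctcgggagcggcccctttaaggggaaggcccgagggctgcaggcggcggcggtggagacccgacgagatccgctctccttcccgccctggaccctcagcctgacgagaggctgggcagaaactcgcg
In ZNF548 the CArG boxes begin 149 and 52 bases before the start, with the ETS match between them at 115. In ZNF562 the CArG box begins 219 bases before the start and the CRE 7 bases before it. The CRE of ZNF121 begins 50 bases before its start, and the run of letters just in front of it is the same as in ZNF562, a gene of the same row. No match to any motif searched was found in the window of ZNF792. Of the 216 member promoters 0.926% held a CArG box and 3.24% a CRE, against 1.29% and 1.98% of 27305 promoters of all genes. A match is only a run of letters, and none was tested for binding.

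Other early rises were smaller. ZNF331, an imprinted gene of the long arm, had 350 normalized counts at 60 min, its highest, against 219 at 0 min and 144 at 10 min, and was back to 158 at 240 min. Its log2 change at 60 min was 0.65 (0.14, adjusted p 0.000872, edgeR), and at 240 min against 120 min it fell by 0.70. ZNF547, which lies next to ZNF548 on the same strand and holds a CRE, rose by 0.76 (0.13) at 60 min and stayed at 0.58 (0.14) at 400 min. ZNF850 rose by 0.85 (0.15) and ZNF264 by 0.53 (0.07) at 60 min. These 4 calls were lost with another scaling and without the 0 min library. Size factors taken from the added spike-in sequences moved the median of all genes at 60 min by -0.23 on the log2 scale. With them the 4 had log2 changes of 0.30 (ZNF264) to 0.63 (ZNF850) at adjusted p values of 0.254 to 0.547 in edgeR. When the 0 min library was left out, the adjusted p values were 0.0396 to 0.998. The changes of ZNF331 and ZNF547 were then larger, 1.44 (0.40) and 1.08 (0.36), while ZNF264 had 0.34 (0.17) and ZNF850 -0.04 (0.39). With that scaling ZNF548 was the member called higher and ZNF792 the one called lower at 60 min.

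A further set rose between 60 and 120 min. ZNF551 had 361 normalized counts at 60 min, 657 at 120 min, 665 at 140 min, its highest, and 458 at 240 min, a log2 change of 1.16 (0.09) at 120 min against 0 min (adjusted p 1.47e-15, edgeR), with 1.16 (0.24) without the 0 min library. ZNF649, whose product has been reported to repress reporters driven by serum response elements and AP-1, had 170 at 60 min, 319 at 120 min and 385 at 140 min. It rose by 0.94 (0.09) at 120 min against 60 min and was 1.08 (0.14) above 0 min at 400 min, or 0.92 at an adjusted p of 0.0777 in edgeR without the 0 min library. ZNF749 rose by 0.95 (0.09) and ZNF586 by 0.62 (0.06) in the same step. ZNF551, ZNF586 and ZNF749, with ZNF548, all lie in the most distal row of members. At 400 min against 240 min ZNF586 fell by 0.40 (0.06). In all 8 members of that row were lower in this step, a share near the 14.5% of all genes.

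The largest fall was that of ZNF792, a KRAB gene of the long arm (ENSG00000180884.9, chr19:34956354-34964229, minus strand). Its count was 186 at 0 min, 204 at 30 min and still 170 at 40 min. It was down to 74.7 at 60 min and 32.7 at 90 min, was lowest with 20.2 at 160 min, and had come back to 41.8 by 240 min and 92.1 by 400 min. The 5 libraries from 0 to 40 min lay between 170 and 204, and every library from 80 to 240 min lay under 42. At 120 min the log2 change was -2.86 (0.16, adjusted p 4.8e-20, edgeR), 7.25-fold lower than at 0 min, and it was called in all 15 alternatives, with -3.05 (0.38) without the 0 min library. Between 240 and 400 min it rose again by 1.13 (0.11, adjusted p 2.8e-11). The gene shared no exon and no 100-base stretch with any other annotated transcript.

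Falls at 60 min against 0 min were otherwise modest. ZNF606 fell by 0.69 (0.12) and ZNF550 by 0.64 (0.11), and neither was called with spike-in size factors, where the changes were larger, -0.92 (0.24) and -0.87 (0.24), at adjusted p values of 0.0145 and 0.0265 in edgeR. They were -0.62 (0.33) and -0.16 (0.30) without the 0 min library. ZNF550 then turned, and its highest count was 788 at 400 min, against 509 at 0 min and 339 at 60 min. ZNF20 (-0.75) and ZNF709 (-0.66) share 72.8% and 92.2% of their exon sequence with transcripts of other annotated genes, a read-through with ZNF625 in the case of ZNF20, so their counts cannot be assigned to 1 gene. At 120 min ZNF671, a gene known for methylation of its promoter in cervical cancer, had 81.3 counts, against 161 at 0 min, a change of -1.02 (0.16). ZNF546 (-1.04, 0.19) and ZNF439 (-0.85, 0.15) fell at 120 min as well. Of these 3, none passed the threshold without the 0 min library, where the changes were -0.94, -0.41 and -0.67.

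**Figure D3:**
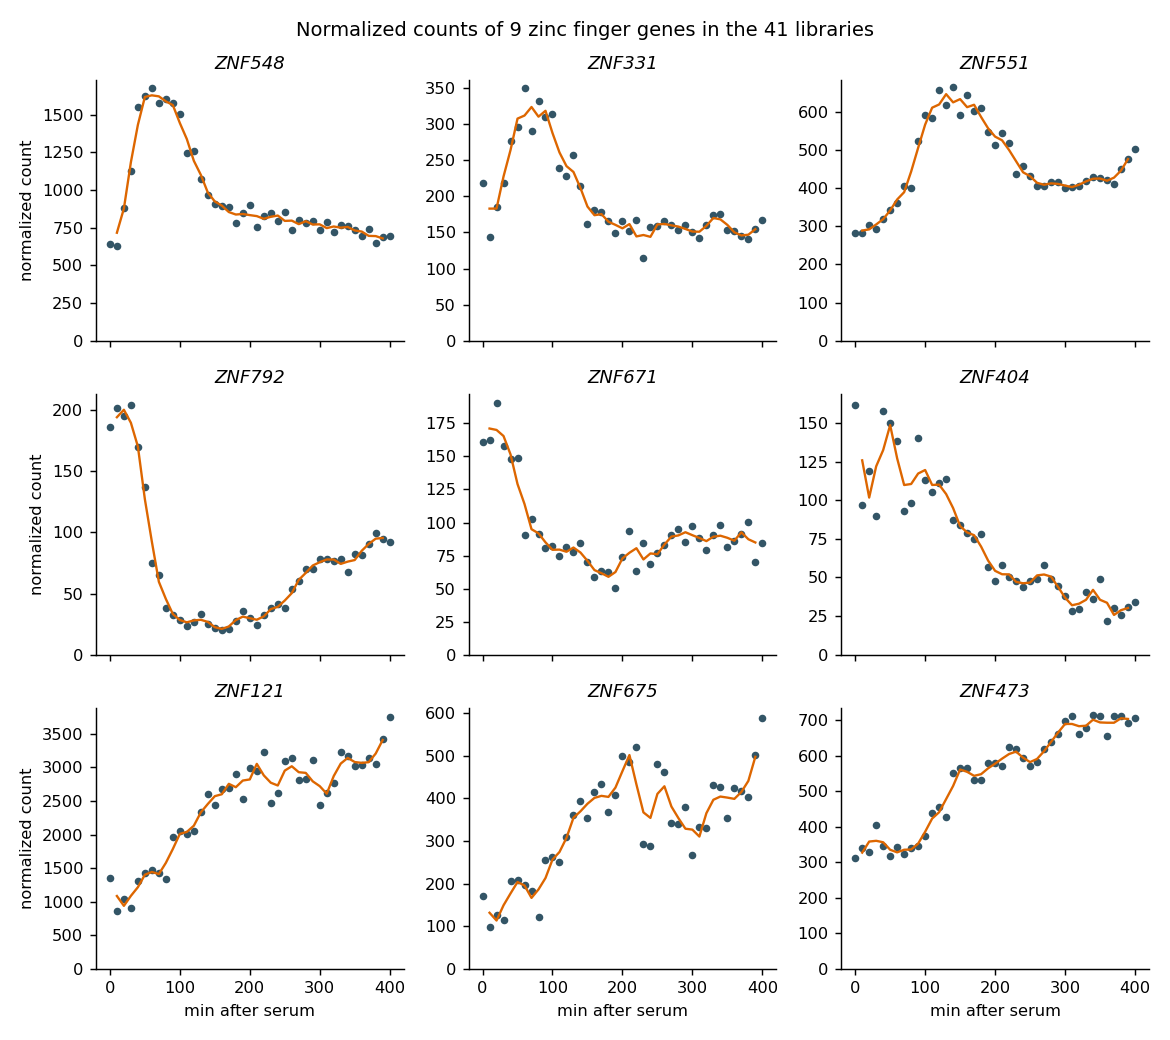
Normalized counts of 9 members (ZNF548, ZNF331, ZNF551, ZNF792, ZNF671, ZNF404, ZNF121, ZNF675 and ZNF473) in the 41 libraries against min after serum. Points are single libraries and lines the running mean of 3. ZNF548 is highest at 60 min (1680) and ZNF551 at 140 min (665), ZNF792 is lowest at 160 min (20.2), and ZNF121 ends at 3745.

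Later falls were led by ZNF404 (ENSG00000176222.8, chr19:43872365-43901385), a KRAB gene of the long arm. It had 34.3 normalized counts at 400 min, against 162 at 0 min, with 111 at 120 min and 43.8 at 240 min between, and its lowest value was 21.7 at 360 min. The log2 change at 400 min was -2.48 (0.23, adjusted p 5.79e-13, edgeR), called in all 15 alternatives, and -2.38 (0.61) without the 0 min library. ZNF846 fell by 1.27 (0.17), also in every alternative, but shares 18.3% of its exon sequence with an overlapping transcript. ZNF345, which lacks a KRAB box, fell by 1.58 (0.23) and ZNF554 by 1.43 (0.19). Without the 0 min library these last 2 kept changes of -1.71 and -1.60 at adjusted p values of 0.0634 and 0.0145 in edgeR.

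The remaining largest falls at 400 min were those of ZNF471 (-1.20, 0.21), ZNF792 (-1.0, 0.15), ZNF444 (-1.0, 0.15), ZNF221 (-0.99, 0.22), ZNF671 (-0.96, 0.17) and ZNF580 (-0.95, 0.13). ZNF444 and ZNF580 have few fingers, 4 and 3, no KRAB box and GC-rich exons of 68.7% and 69.2%, and with the GC offset they fell by 0.80 and 0.75. The changes of ZNF471 and ZNF221 were -0.41 (0.64) and -0.13 (0.67) without the 0 min library. None of these 6 calls passed without it, and the changes of the other 4 were then -0.77 to -1.20. ZNF471 had 154 counts at 400 min, against 301 at 0 min, but 137 already at 10 min.

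Rises at 400 min took in the most abundant member. ZNF121 (ENSG00000197961.11, chr19:9560329-9584504), which has fingers but no KRAB box, averaged 2447 normalized counts, the highest of the 246. It had 3745 at 400 min, its highest, against 1352 at 0 min, with 863 at 10 min as the lowest and 2057 at 120 min. The change was 1.39 (0.15, adjusted p 1.64e-10, edgeR), or 1.21 with the GC offset and 1.85 (0.39) without the 0 min library, and it was called in all 15 alternatives. ZNF562, 2 genes further along the same row, had 1672 at 400 min, against 721 at 0 min, and rose by 1.08 (0.07). Between them lies ZNF561, which rose by 0.82 (0.07). These 3 are among 7 members with a CRE in the promoter. The other 4 had log2 changes of 0.58 (ZNF547, adjusted p 0.000424), 0.38 (ZNF543, 0.00201), -0.03 (ZNF426, 0.767) and -0.27 (ZNF266, 0.00865) at 400 min, and ZNF426 and ZNF266 stand in the same row as ZNF121. Without the 0 min library ZNF121, ZNF561 and ZNF562 were the 3 of the 7 called.

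ZNF473, also called ZFP100, a part of the U7 ribonucleoprotein that processes histone pre-mRNA, stayed between 312 and 406 counts in every library from 0 to 90 min. It had 456 at 120 min, 592 at 240 min and 707 at 400 min, a change of 1.22 (0.10, adjusted p 2.76e-14, edgeR) at 400 against 0 min and of 0.52 (0.07) at 120 against 60 min. ZNF675, or TIZ, an inhibitor of signalling through TRAF6, had the largest rise, with 588 counts at 400 min, against 170 at 0 min, a change of 1.60 (0.29). The libraries of ZNF675 scatter, with 415 at 160 min but 267 at 300 min, and it is GC-poor (36.3%). Without the 0 min library its change was 1.86 at an adjusted p of 0.169 in edgeR. ZNF101 had 368 at 400 min, against 146 at 0 min (1.38, 0.12), and ZNF749 290, against 124 (1.28, 0.14). Both were called in all 15 alternatives, ZNF101 with 2.32 and ZNF749 with 1.53 without the 0 min library.

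ZNF442 (1.46), ZNF583 (1.43), ZNF28 (1.3) and ZNF600 (1.17) complete the 10 largest rises at 400 min. ZNF28 had 1995 counts at 400 min, against 698 at 0 min, ZNF442 122, against 42.5, and ZNF583 124, against 44.6. Without the 0 min library none of the 4 passed (adjusted p 0.0311 to 0.291, edgeR), although their changes were 1.09 to 2.48. For ZNF442 the rise fell after 120 min and needs no 0 min library. It was 1.31 (0.14, adjusted p 1.76e-10) higher at 240 min, with 74.4 counts, than at 120 min, with 29.7, the largest rise of that step. Leaving aside the fits without the 0 min library, 24 of the 62 higher and 10 of the 28 lower members at 400 min were called under every alternative.

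Between 240 and 400 min the largest rises after ZNF792 were those of ZNF420 (0.87, 0.15), ZNF480 (0.73, 0.18), ZNF546 (0.72, 0.14) and ZNF823 (0.68, 0.11). ZNF420, also known as Apak, a regulator of p53, had 392 counts at 400 min, against 153 at 240 min, and its rise was 0.71 with the GC offset. ZNF480 had 962, against 318, and was not called without the 400 min library (0.54, adjusted p 0.0484, edgeR). The largest falls were those of ZNF404 (-0.76, 0.19), ZNF580 (-0.49, 0.09), ZNF586 (-0.40, 0.06), ZNF358 (-0.38, 0.10) and ZNF587B (-0.34, 0.05). ZNF358, a GC-rich gene, was not called with the GC offset (-0.19). With spike-in size factors ZNF480, ZNF546, ZNF404, ZNF586, ZNF358 and ZNF587B were not called (adjusted p 0.0124 to 0.103, edgeR), with changes of the same sign. ZNF792, ZNF420, ZNF823 and ZNF580 were called there.

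Counts of calls differed along the chromosome. With a gap of over 1 Mb starting a new row, the tested members formed 15 rows, of which 7 held 14 or more. In the row from ZNF653 to ZNF791 (chr19:11483427-12640098, 25 tested) 11 members were lower and none higher at 120 min than at 0 min (all genes 6.76% and 13.6%), with a median log2 change of -0.54, and 15 were lower and 1 was higher with the GC offset, which puts the median at -0.62. None of the 11 passed without the 0 min library. All 11 changes were then below 0, with a median of -0.80, against -0.85 with it. Their median standard error was 0.45, against 0.15. The 11 were chosen by their fall in a fit sharing all the other libraries, so these signs are not separate support. At 240 min against 120 min 11 of the 25 were higher and none lower (all genes 18.0% and 18.1%), and at 400 min against 240 min 9 were higher and none lower (14.8% and 14.5%). ZNF627 shows this course, with a trough of 298 counts at 70 min and a rise of 0.72 (0.05) at 240 against 120 min. ZNF791, the most abundant of the row with a mean of 800 counts, fell by 0.51 (0.08) at 120 min. Of the 11 that fell, ZNF709, ZNF564, ZNF20, ZNF490, ZNF763 and ZNF844 share 44.5% to 92.2% of their exon sequence with another transcript, and ZNF627, ZNF491, ZNF439, ZNF563 and ZNF791 share none. A shared read counts for every gene it touches, so the first 6 are not separate observations from their neighbours.

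The distal row from ZNF628 to ZNF446 (chr19:55476617-58481230, 58 tested) ran the other way at 120 min, with 15 higher and 6 lower than at 0 min (all genes 13.6% and 6.76%) and 18 higher and 4 lower than at 60 min (11.1% and 5.03%). Without the 0 min library, the calls of this row at 120 min against 0 min were ZNF304, ZNF548 and ZNF551, higher, and ZNF772, lower. With spike-in size factors they were ZNF416, ZNF548, ZNF551, ZNF586 and ZNF749, higher, and ZNF671, lower. At 400 min 21 were higher and 8 lower than at 0 min (24.2% and 22.4%). In its last step, 400 against 240 min, 1 was higher and 8 were lower (14.8% and 14.5%). The row from ZNF576 to ZNF180 (chr19:43596392-44500524, 21 tested) had 4 lower and none higher at 120 min. The row from ZNF175 to ZNF331 (chr19:51571283-53580269, 37 tested), with ZNF28, ZNF468 and ZNF600, had 12 higher and 2 lower at 400 min than at 0 min, and 12 and 8 with the GC offset. Near the centromere, the row from ZNF101 to ZNF254 (chr19:19668796-24129968, 29 tested), GC-poor at a median of 36.8%, had 5 higher and none lower at 400 min, and 6 and 3 with the offset. The course of 1 row was not tested against that of another.

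**Figure D4:**
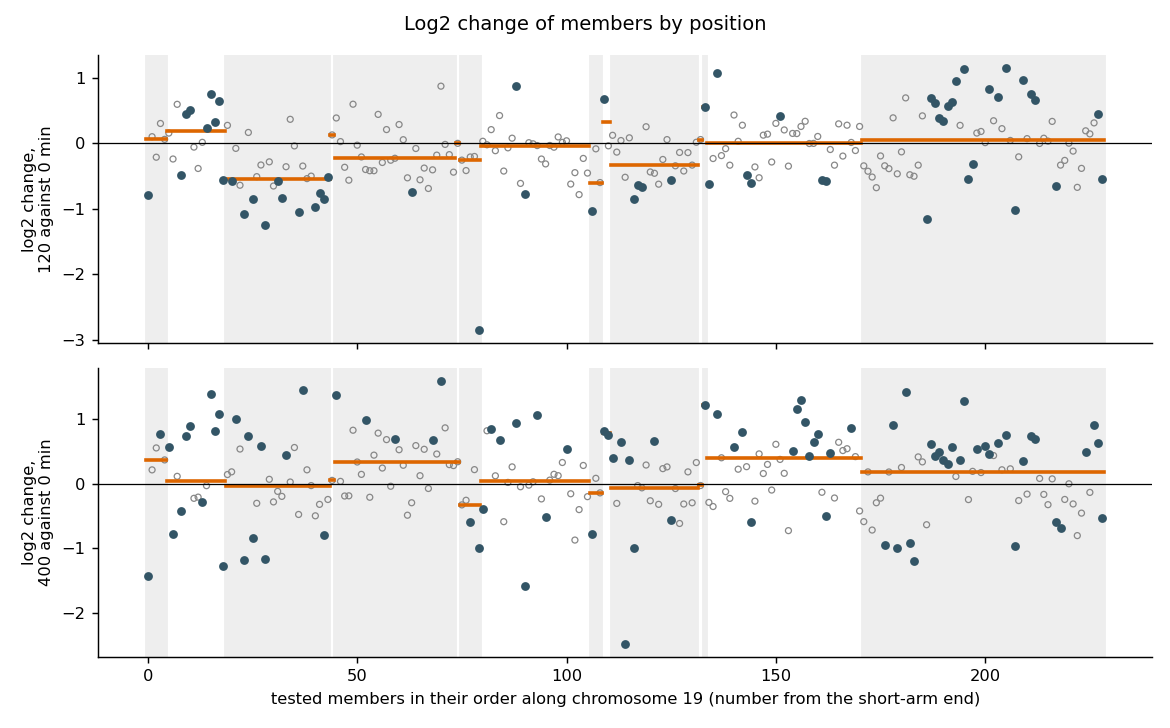
Log2 change of the 229 tested members at 120 min (upper panel) and 400 min (lower panel) against 0 min, in their order along chromosome 19. Filled points passed an adjusted p of 0.01 in edgeR, open points did not, grey and white bands mark the 15 rows and orange lines their medians. The third row, ZNF653 to ZNF791, has a median of -0.54 at 120 min and no filled point above 0, and ZNF792 is the single point at -2.86.

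Neighbouring genes of a row had more alike profiles than distant ones. Over the 41 libraries the median Pearson's r was 0.35 for 186 neighbouring pairs, 0.26 for 2552 other pairs of a row and 0.17 for 17162 pairs of different rows. Among genes with no shared exon or sequence it was 0.43 for 50 neighbouring pairs and 0.17 for 4085 pairs of different rows. All pairs share the libraries and their GC differences, and the ranges overlap widely, with quartiles of 0.05 and 0.66 among neighbours and -0.18 and 0.48 between rows. The profiles had no GC offset, and the part of likeness in GC content between neighbours was not tested.

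By protein type, the 198 tested members with a KRAB box had 22 higher and 29 lower at 120 min and 55 higher and 21 lower at 400 min (47 and 44 with the GC offset). The 31 without one had 4 and 4 at 120 min and 7 and 7 at 400 min (9 and 8). The shares over all genes are those given above, 13.6% and 6.76% for 120 min and 24.2% and 22.4% for 400 min. The medians at 400 min were 0.21 and -0.22, or 0.04 and -0.07 with the offset, and the median GC content was 42.0% with and 61.8% without a KRAB box. Members with 15 or more fingers (71 tested) had 19 higher and 7 lower at 400 min, those with 10 to 14 (99) 27 and 13, and those with fewer (59) 16 and 8. Counts of calls also differed by level. Ranked by normalized count per kb of exon, the 77 highest members had 37 higher and 5 lower at 400 min with a median of 0.38, and the 77 lowest had 3 higher and 16 lower with a median of -0.21, or 0.25 and -0.37 with the GC offset. The standard errors of the lowest are larger, which limits calls in both directions.

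The members highest per kb of exon were ZNF146, ZNF468, ZNF121, ZNF460 and ZNF302, with means of 280 to 351 normalized counts per kb, against a median of 40.7. ZNF468 rose by 0.96 (0.13) at 400 min in every alternative and ZNF460 by 0.49 (0.08), or 0.46 at an adjusted p of 0.105 in edgeR without the 0 min library. ZNF146, or OZF, a protein of fingers alone, had 2705 counts at 400 min, against 1328 at 0 min, but 543 at 10 min and 547 at 30 min, and its change of 0.82 (0.32) did not pass (adjusted p 0.028, edgeR). ZNF302 had 1670, against 1915, with 942 at 10 min, and its change of -0.33 (0.23) did not pass (adjusted p 0.239). With the GC offset both passed, ZNF146 higher at 0.63 (adjusted p 0.0087) and ZNF302 lower at -0.51 (0.00781), but ZNF302 had 0.44 without the 0 min library. Both are GC-poor, and their low libraries are those in which GC-poor genes were low.

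Of 20 members with a described role, 18 were tested. At 400 min 4 were higher and 2 lower (all genes 24.2% and 22.4%), or 4 and 5 with the GC offset (24.2% and 27.2%). Without the offset the 4 were ZNF649, ZNF675, ZNF317 (0.75, 0.09) and ZNF304 (0.31, 0.07), a repressor of the INK4-ARF locus in colorectal cancer cells. The 2 were ZNF671 and ZNF580. Of these 6, ZNF317 was the one called without the 0 min library. With the offset ZNF304 was not called (0.16, adjusted p 0.0393, edgeR), and ZNF146 was among the 4 instead. ZNF91 and ZNF93, repressors of retroelements, did not pass. ZNF91, which binds SVA elements, had 1620 counts at 400 min, against 1024 at 0 min (0.46, 0.33, adjusted p 0.244), and ZNF93, which binds LINE-1, had 151, against 62.2 (0.83, 0.28, adjusted p 0.0107). ZNF274, which brings SETDB1 to the ends of zinc finger genes, stayed between 233 and 351 counts in all 41 libraries (-0.24, 0.10, adjusted p 0.0448). ZNF224, a repressor of the aldolase A gene, had 604, against 718 (-0.32, 0.20, adjusted p 0.183), and was called lower with the GC offset (-0.50, adjusted p 0.00133, edgeR). ZNF350, a partner of BRCA1 also called ZBRK1, had -0.12 (0.17). ZNF568, whose mouse counterpart represses a placental promoter of Igf2, had 0.03 (0.17). The values of ZNF93, ZNF224 and ZNF350 had the opposite sign without the 0 min library, -0.50, 0.53 and 0.58. ZNF536 and ZNF296 were below the filter.

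In all 17 members stayed below it, none with more than 9 counts in any library and none at 0 throughout. They were ZNF560, ZNF208, ZNF257, ZNF676, ZNF729, ZNF98, ZNF99, ZNF723, ZNF728, ZNF536, ZNF575, ZNF233, ZNF296, ZNF541, ZNF534, ZNF677 and ZNF135. Just inside the filter were ZNF114, ZNF556 and ZNF878, with means of 3.43, 5.29 and 6.11 normalized counts, and just outside ZNF575, ZNF98 and ZNF541, with 3.25, 3.03 and 2.92.

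KRAB proteins act through partners, and 33 genes of that machinery and of heterochromatin were read out beside the members. Of 32 tested, 10 were higher and 8 lower at 400 min than at 0 min (all genes 24.2% and 22.4%), or 12 and 12 with the GC offset (24.2% and 27.2%). At 120 min 1 was higher and 6 were lower (13.6% and 6.76%), and 29 changed over the course (75.5%). The median log2 change at 400 min was 0.06, against 0.00 over all genes. TRIM28, the KRAB corepressor, had 3930 counts at 400 min, against 2966 at 0 min (0.54, 0.10, adjusted p 2.14e-05, edgeR), with 0.49 at an adjusted p of 0.213 without the 0 min library. SETDB1 had 864, against 913 (-0.13, 0.07, adjusted p 0.131). Its partner ATF7IP fell to 597, against 1981 (-1.82, 0.08), and the related methyltransferase SETDB2 to 269.5, against 1162 (-2.13, 0.12). DNMT3A, a DNA methyltransferase, fell by 1.03 (0.12) and CHD3, a remodeller of the NuRD complex, by 0.99 (0.08). UHRF1, which guides maintenance of DNA methylation, rose by 1.23 (0.12), and SUV39H2, another H3K9 methyltransferase, by 1.05 (0.14). Of the 6 named last, DNMT3A and SUV39H2 did not pass without the 0 min library (adjusted p 0.0246 and 0.0514).

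The promoters of the members share letters that the rule did not use. The ETS match CCGGAAG, either strand, was in 98 of 216 member promoters (45.4%), 73 of 214 of zinc finger genes of other chromosomes (34.1%), 176 of 1294 of the other genes of chromosome 19 (13.6%) and 2913 of 27305 overall (10.7%). Its centre lay at a median of 15 bases before the start in the members and 22 in zinc finger genes of other chromosomes. In the other genes of chromosome 19 it lay 51 bases before the start, and 44 overall. The core of the CRE (TGACGT), which every CRE also holds, was in 11.1% of member promoters and 8.32% of all. AP-1 (TGANTCA) was in 6.48% of members and 7.76% of all, the E-box (CACGTG) in 4.17% and 7.43%, the FOXO site (GTAAACA) in 0.926% and 3.41%, and TATAAA in 1.85% and 12%. The 93 tested members with the ETS match had 28 higher and 9 lower at 400 min (all genes 24.2% and 22.4%), with a median of 0.29. The 112 without it had 29 and 16 with a median of 0.10. These values are without the GC offset. Members with the match also had higher levels, 52.6 against 37.9 normalized counts per kb at the median, and this difference in response was not tested.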

How the data were processed

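Per the labels and the study's methods, the authors trimmed reads with cutadapt 1.11, aligned them to GRCh38 with STAR 2.5.2a and counted exon reads by strand with featureCounts, counting multi-mapping and overlapping reads for every gene they touch. They deposited raw counts per gene, used for every test, and a table of signal values (counts divided by DESeq2 1.24.0 size factors), which was checked and not tested. Levels here are counts divided by median-of-ratios size factors. Genes with over 10 counts in 1 library and over 2 in 3 consecutive libraries were kept. Each was fitted with edgeR 4.0.16 (R 4.3.3) on a natural spline of time with 7 degrees of freedom, by the quasi-likelihood test with Benjamini-Hochberg adjustment at 0.01, and the scripts were tested on simulated data. Time points have 1 library each, so p-values measure the scatter of single libraries about the curves. DESeq2 1.42.0, other scalings, filters, splines and left-out libraries were tried. The GC offset (30 bins of GC content) was chosen after seeing the data. Positions, symbols and exons come from GENCODE 44. Rows of members were split at gaps of over 1 Mb.

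Members, lists and tests were chosen with earlier results of these data known. Named members are those past the threshold with a mean of at least 50 and the 10 largest rises and falls at 400 min, the 5 largest at 60 min, at 120 min and for 400 against 240 min, the 5 highest per kb, and a list with described roles. Other genes, named by row, motif or step, were chosen after their values were seen. Of the cofactor list the 6 with the largest change, TRIM28, SETDB1 and ZNF274 are named.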

Additional observations from a re-analysis of the deposited data

How the results depend on the processing

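The single 0 min library and the choice of size factors moved most counts, given here as members higher and lower. Without the 0 min library there were 2 and 0 at 30 min (9 and 2 at an unadjusted p under 0.05 in edgeR, DESeq2 on all libraries 7 and 2), and 1 and 0, 4 and 2, 9 and 2, and 11 and 2 at 60, 120, 240 and 400 min. With spike-in size factors there were 0 and 0 at 30 min (1 and 15 at an unadjusted p under 0.05), and 1 and 1, 6 and 5, 20 and 14, and 24 and 11 at the later times. The same scaling gave 19 and 1 for 120 against 60 min, 22 and 6 for 240 against 120 min and 5 and 1 for 400 against 240 min. The GC offset gave 4, 20, 59 and 52 lower at 30, 60, 120 and 400 min, 42 lower for 120 against 60 min and 25 lower for 400 against 240 min. Offset and without the 0 min library, there were 2 and 0, 1 and 1, 7 and 2, 12 and 9, and 12 and 9 at the 5 times (6 lower at 30 min at an unadjusted p under 0.05), with 42 lower for 120 against 60 min and 24 lower for 400 against 240 min. A spline with 5 degrees of freedom gave 15 and 26 at 30 min, 21 and 27 at 60 min, 40 higher at 120 min, and 54 and 44 for 120 against 60 min. Evenly spaced knots gave 11 and 6 at 30 min, 31 lower for 120 against 60 min, and 25 and 5 for 400 against 240 min. Without the 400 min library that last step had 22 and 9. Library size alone gave 1 and 1 at 30 min and 7 higher at 60 min. At 30 min there were 0 lower with no filter (34 at an unadjusted p under 0.05) and with windows of time (1), 7 lower without the 3 smallest libraries and 18 lower without the 4 farthest from the curves. An adjusted p of 0.05 gave 57 lower at 120 min and 37 lower for 120 against 60 min. A change of at least 1.5-fold gave 1 and 1, 4 and 6, and 16 and 21 at 30, 60 and 120 min and 33 higher at 240 min. Of the 246 members 90 share an exon on the same strand with another gene. Among members that share no exon there were 7 and 5, 15 and 19, 29 and 26, and 38 and 17 at 60, 120, 240 and 400 min, 18 higher for 120 against 60 min, 35 and 9 for 240 against 120 min, 6 lower for 400 against 240 min, and 118 changed over the course. These counts come from fewer members and cannot be set beside those of the 229 as shares. A gap of over 2 Mb gave 8 rows. Apart from that smaller set, the cause of these shifts was not tested. Shares of all genes are given above for the GC offset on all 41 libraries and were not read out for the other alternatives.

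Of the values of named genes under the alternatives, 976 kept direction and side of the threshold, 99 lost the call, 25 gained one and 28 turned. Of these 2 were of a called change, ZNF850 at 60 min, with -0.0392 without the 0 min library and -0.0866 with the GC offset as well. The other 26 were of 8 members not called at 400 min. Without the 0 min library, and then with the GC offset as well, ZNF224 had 0.532 and 0.201, ZNF302 0.44 and 0.0807, ZNF331 0.383 and 0.264, ZNF350 0.585 and 0.39, ZNF382 1.07 and 0.874, and ZNF93 -0.502 and -0.728. With 5 degrees of freedom and with evenly spaced knots ZNF224 had 0.0592 and 0.108, ZNF302 0.181 and 0.114, and ZNF350 0.148 and 0.189, and windows of time gave 0.0509 for ZNF350. ZNF260 had -0.00823 without the 400 min library and -0.0665 with the GC offset. ZNF568 had -0.0407 with library size alone, -0.155 with the GC offset, and -0.0465, -0.0465 and -0.0314 without the 400 min library, the 3 smallest and the 4 farthest libraries. No paired analysis was possible because each time point has 1 library. Counting error is small for most members, but the 77 lowest per kb include 29 with a mean under 50, where a change may not be detectable at this depth.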

Other observations

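The 8 other C2H2 zinc finger genes of chromosome 19 that were read out carry symbols outside the ZNF pattern and were looked at after their values were seen. At 400 min against 0 min 1 of the 8 was higher and 3 were lower (edgeR, adjusted p below 0.01, with and without the GC offset, all genes tested 24.2% and 22.4%), with a median log2 change of -0.13. ZFP14, a KRAB gene, had 122 normalized counts at 400 min, against 318 at 0 min, a fall of 1.49 with a standard error of 0.17. ZSCAN18, of the SCAN-domain class, had 80.4, against 201, a fall of 0.99 (0.18). ZIK1 fell by 0.40 (0.09) and ZFP28 rose by 0.60 (0.17).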
